A study of Mus musculus with 12 samples.

Results

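The genes described here are 40 interferon-stimulated genes of the mouse, which are genes whose transcription rises when a cell senses type I, type II or type III interferon. They were taken from a list of names, and each was read from its brightest probe among the array probes that carry exactly 1 gene symbol. Such a probe was found for 39 of the 40 genes, out of 22180 genes with a probe of that kind, and Dtx3l, a ubiquitin ligase gene, had none. All 39 passed the filter on dim genes and were among the 12710 genes tested. Each of the 39 had 1 such probe, except for Ifi35 with 2.

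Affymetrix mouse gene arrays were run on RNA from the epididymal fat pad, the inguinal fat pad and the liver of male mice with the background strain C57BL/6N. The Mgl2-DTR line makes the receptor for diphtheria toxin wherever Mgl2 is active, which marks mononuclear phagocytes with the surface lectin CD301b, and toxin then removes those cells. Control mice were age-matched wild-type animals, which keep these cells. Both genotypes received 500 ng of diphtheria toxin per dose in the abdomen every 3 days, and all tissues were collected on day 10, so no group was free of toxin. Each of the 6 groups of tissue and genotype has 2 arrays, 12 in all. The labels do not state ages, whether the same mice gave all tissues, or that the replicates are separate animals, so each p-value reflects spread among these samples, which may be technical. The question put to the members was whether their levels differ between mice with and without these cells, tissue by tissue.

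Interferons bind receptors on the cell surface, and the receptor for type I interferon activates the kinases Jak1 and Tyk2. After type I interferon these assemble a complex that includes Stat2 and Irf9, which binds a DNA motif called the interferon-stimulated response element and switches on antiviral genes. Irf7 amplifies the response by driving interferon genes, and Usp18 dampens it at the receptor. Macrophages, dendritic cells, endothelial cells and most parenchymal cells can all carry out this program.

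Promoter sequence, from 250 bases before to 50 bases after the start of a gene, was taken from a RefSeq table of build GRCm38.p6, in which 32 of the 40 members were matched. The core of the response element, the letters GAAA followed by any 2 bases and again GAAA, was searched on both strands. It was present in 15 of these 32 members (46.9%), beside 3.99% of 27025 genes with a window in the table. The 5 stretches printed here hold the motif in members whose values are given below: the transcription factor Stat2, the chemokine Cxcl10, the antiviral genes Ifit1 and Isg15, and the GTPase Gbp3. They read 5′ to 3′ on the strand of the gene, and capitals mark every match on either strand, with overlapping matches run together. The stretches lie at chr10:128270248-128270347 (plus strand) for Stat2, chr5:92349040-92349139 (minus) for Cxcl10, chr19:34640759-34640858 (plus) for Ifit1, chr4:156200819-156200918 (minus) for Isg15 and chr3:142559944-142560043 (plus) for Gbp3.
Stat2: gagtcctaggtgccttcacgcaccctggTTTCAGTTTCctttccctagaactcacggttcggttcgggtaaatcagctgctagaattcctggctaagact
Cxcl10: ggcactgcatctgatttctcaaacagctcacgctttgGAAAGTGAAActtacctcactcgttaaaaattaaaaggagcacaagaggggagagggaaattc
Ifit1: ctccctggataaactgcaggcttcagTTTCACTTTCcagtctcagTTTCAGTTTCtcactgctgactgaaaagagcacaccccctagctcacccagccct
Isg15: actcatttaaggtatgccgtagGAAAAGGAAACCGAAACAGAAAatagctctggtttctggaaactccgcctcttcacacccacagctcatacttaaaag
Gbp3: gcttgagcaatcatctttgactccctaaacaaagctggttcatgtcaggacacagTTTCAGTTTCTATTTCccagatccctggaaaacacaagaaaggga
The match nearest the start begins 222 bases before it in Stat2, 213 in Cxcl10, 85 in Ifit1, 66 in Isg15 and 39 in Gbp3. Isg15 holds 3 overlapping matches, Ifit1 and Gbp3 hold 2 each, and Stat2 and Cxcl10 hold 1 each. A second motif, TTCNNNGAA, the site associated with type II interferon, was present in 7 of the 32 members (21.9%) and in 9.55% of the 27025 genes. A match is a stretch of letters and not a measured binding site.

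The deposited values are normalized log2 levels, and the median of an array lay between 5.19 and 5.28. Mgl2, the gene that drives the toxin receptor, was at 7.46 and 7.22 in wild-type and 4.25 and 4.19 in Mgl2-DTR epididymal fat, and at 7.07 and 7.36 against 4.12 and 4.72 in inguinal fat. In liver all its values lay between 4.02 and 4.59, so the depletion could not be read from Mgl2 there. Markers of adipocytes averaged 11.6 to 12.1 in fat and 6.13 to 6.38 in liver, while hepatocyte markers averaged 12.1 to 12.2 in liver and 4.55 to 5.95 in fat. Several fat arrays stood apart from their tissue. Genes of the epididymal duct and testis averaged 11.8 in 1 epididymal Mgl2-DTR array, replicate 2, while the rest of that tissue lay between 5.60 and 5.78. Skeletal muscle genes averaged 10.6 in inguinal wild-type replicate 2 and 10.3 in inguinal Mgl2-DTR replicate 1, and 7.16 and 7.04 in their partners. Pan-macrophage markers were unequal between the epididymal wild-type arrays, averaging 10.7 in replicate 1 and 9.81 in replicate 2.

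Most interferon-stimulated genes were higher in Mgl2-DTR than in wild-type tissue, but no single one of them passed the test in any tissue. The clearest shifts were in inguinal fat and liver, where 38 and 36 of the 39 members were higher in Mgl2-DTR mice. In epididymal fat 30 of 39 were higher, and there the difference came from 1 array of 2. Members also moved together between the replicates of some groups, so these counts are not separate observations of the genotype. The pooled SD of the members' median level between replicates was 0.27. The members' median log2 change was 0.41 in inguinal fat, 0.41 in liver and 0.19 in epididymal fat, beside medians over all 12710 genes of 0.10, 0.01 and 0.01. Set against those medians, the members' shift was 0.31 in inguinal fat, 0.40 in liver and 0.18 in epididymal fat. Whether there are more interferon-responding cells or more of this RNA in each cell cannot be told apart in whole tissue.

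The mean log2 level of the 39 members on each array shows the same pattern. In inguinal fat it was 7.82 and 8.04 in the wild-type arrays and 8.26 and 8.47 in the Mgl2-DTR arrays. In liver it was 7.50 and 7.45 in wild-type and 7.98 and 7.82 in Mgl2-DTR. The groups did not overlap in either tissue. In epididymal fat the wild-type arrays were at 7.53 and 7.70, Mgl2-DTR replicate 1 was at 8.14 and Mgl2-DTR replicate 2 was at 7.53, level with the lower of the wild-type arrays. The plot of members array by array gives the same values gene by gene.

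**Figure D1:**
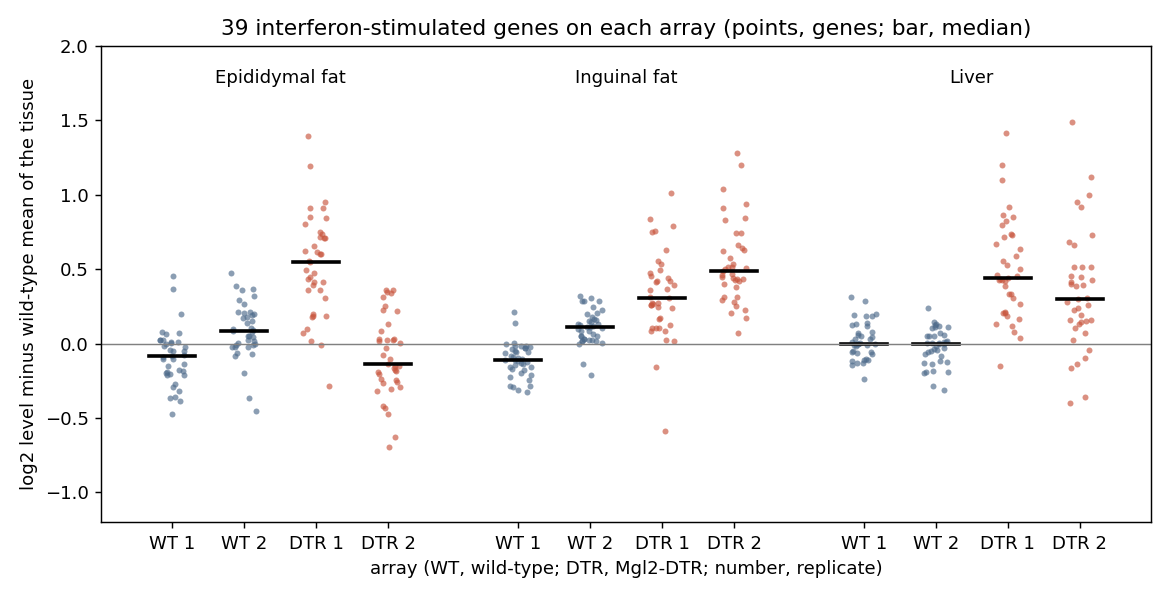
Each point is 1 of 39 interferon-stimulated genes on 1 array, as its log2 level minus the wild-type mean of that gene in the same tissue (y axis), with the 12 arrays on the x axis and bars at the median. Both inguinal and both liver Mgl2-DTR arrays have medians of 0.30 to 0.49, while in epididymal fat replicate 1 has a median of 0.55 and replicate 2 one of -0.14.

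Limma with Benjamini-Hochberg adjustment over 12710 genes called 0 of 39 members at an adjusted p under 0.05 in each tissue. Over all genes that rule called 0.0315% in epididymal fat, 0.197% in inguinal fat and 0.0708% in liver. At an unadjusted p under 0.05, 3 members were higher in epididymal fat, where 3.5% of all genes were. In inguinal fat 13 members were higher at that level, beside 4.77% of all genes, and in liver 9 were, beside 3.16%. Lower at that level were 0 members in each tissue, beside 3.48%, 2.16% and 2.37% of all genes in epididymal fat, inguinal fat and liver. These counts moved with single arrays. The inguinal 13 became 2 without wild-type replicate 1 (3.2% of all genes), 5 without Mgl2-DTR replicate 2 (3.23%), and 6 after quantile or cyclic loess normalization (2.58% and 1.86%). Array centring, an alternative chosen after seeing the data, gave 7 (2.42%). The liver count fell when any single liver array was left out and rose without either epididymal Mgl2-DTR array, while the share of all genes moved less. The epididymal count fell when either array numbered 1 was left out and rose when either numbered 2 was. There the share of all genes rose without wild-type replicate 2 or Mgl2-DTR replicate 1 and fell without either of the others. With single arrays left out, the members' median change ran from -0.14 to 0.55 in epididymal fat and from 0.30 to 0.44 in liver.

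Both Mgl2-DTR arrays lay above both wild-type arrays for 9 members in epididymal fat, beside 14.8% of all genes. In inguinal fat this held for 32 members, beside 36.5% of all genes, and in that depot 70.7% of all genes had a change above 0. In liver it held for 29 members, beside 19.2% of all genes. Ifit3, a member of the Ifit family, was the exception in liver, where both Mgl2-DTR arrays lay below both wild-type arrays, an order that 15.2% of all genes had. That order was seen for 0 members in epididymal and inguinal fat, beside 14.7% and 10.4% of all genes. Irf9, Usp18, Stat2, Cxcl10, Zbp1, Oasl2 and Isg15 were apart and higher in all 3 tissues, 7 of 39 members beside 1.22% of all genes. For Cxcl10 and Isg15 the epididymal groups were barely apart. Mgl2-DTR replicate 2 was at 7.45 and 6.14 there, against 7.44 and 6.12 in wild-type replicate 2. Counting genes apart in at least 2 tissues gives 27 of 39 members and 13.5% of all genes. Oasl1, Oas3 and Trim25 were apart and higher in no tissue. The change was above 0 in all 3 tissues for 29 members, beside 20.1% of all genes.

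**Figure D2:**
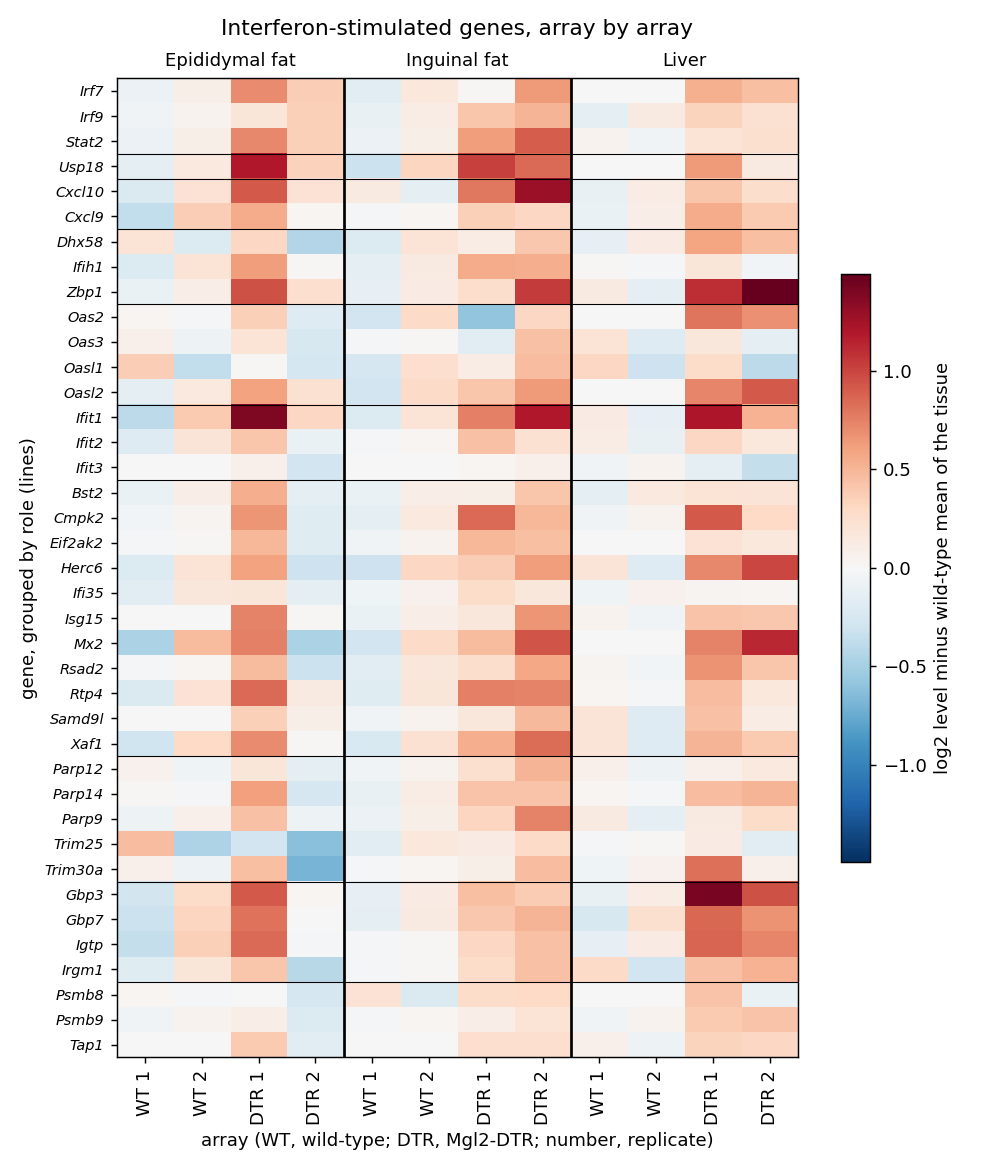
The color gives the log2 level of each member (rows, grouped by role) on each array (columns) minus the wild-type mean of that gene in that tissue, from blue (below) to red (above). The columns of inguinal and liver Mgl2-DTR arrays are mostly red, epididymal Mgl2-DTR replicate 1 is red and replicate 2 is mixed, with 16 of 39 members above the wild-type mean.

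The transcription factors of the response, Stat2, Irf9 and Irf7, were higher in Mgl2-DTR mice in all 3 tissues. Stat2, a subunit of the complex that binds the response element, was at 8.81 and 8.98 in wild-type and 9.52 and 9.80 in Mgl2-DTR inguinal fat. In epididymal fat it was at 8.40 and 8.58 in wild-type and 9.20 and 8.84 in Mgl2-DTR, and in liver at 9.50 and 9.40 against 9.66 and 9.69. Both Mgl2-DTR arrays were above both wild-type arrays in every tissue. Its change was 0.77 (SE 0.16, 1.70-fold, n = 2 arrays a group) in inguinal fat, with a limma adjusted p of 0.236. The change was 0.53 (SE 0.16, 1.45-fold) in epididymal fat and 0.22 (SE 0.16) in liver, with adjusted p of 0.689 and 1.0 by limma. Stat2 had the smallest p of the members in both depots.

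Irf9, the DNA-binding subunit of the same complex, lay at 8.02 and 8.24 in wild-type and 8.55 and 8.64 in Mgl2-DTR inguinal fat. Its groups were apart there and in the other tissues, with changes of 0.47 (SE 0.15) in inguinal fat, 0.27 in epididymal fat and 0.28 in liver (limma adjusted p = 0.598, 0.752 and 0.995). Irf7, the factor that amplifies interferon production, was at 8.05 and 8.22 in wild-type and 8.85 and 8.50 in Mgl2-DTR epididymal fat, and in liver at 8.72 and 8.74 against 9.26 and 9.19. In inguinal fat its groups overlapped, at 8.80 and 9.11 against 8.97 and 9.58. The changes of Irf7 were 0.54 (SE 0.21) in epididymal fat, 0.32 in inguinal fat and 0.49 in liver, and the limma adjusted p was 0.710, 0.783 and 0.885.

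Usp18, the protease that strips Isg15 from proteins and blocks signalling at the type I receptor, had one of the larger differences in both depots. In epididymal fat it was at 7.20 and 7.48 in wild-type and 8.53 and 7.68 in Mgl2-DTR, and in inguinal fat at 7.89 and 8.54 against 9.23 and 9.06. In liver the values were 7.88 and 7.88 against 8.52 and 8.01. No groups overlapped, although in epididymal fat and liver 1 Mgl2-DTR array stood well above the other. The changes were 0.77 (SE 0.30, 1.70-fold), 0.93 (1.90-fold) and 0.39 (1.31-fold), with limma adjusted p of 0.710, 0.609 and 1.0.

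Cxcl10 and Cxcl9 encode chemokines that draw activated T cells through the receptor Cxcr3. Cxcl10 had the largest change of any member in inguinal fat, from 6.74 and 6.47 in wild-type to 7.39 and 7.89 in Mgl2-DTR, a change of 1.04 (SE 0.26, 2.05-fold, limma adjusted p = 0.405). In epididymal fat it was at 7.02 and 7.44 against 8.14 and 7.45, so that Mgl2-DTR replicate 2 was level with the higher wild-type array. Its liver values were 6.83 and 7.05 against 7.36 and 7.20. Cxcl9, which responds mainly to type II interferon, was apart and higher in inguinal fat (10.09 and 10.14 against 10.47 and 10.42) and in liver (9.14 and 9.35 against 9.80 and 9.64). In epididymal fat its Mgl2-DTR values of 9.92 and 9.40 overlapped the wild-type values of 9.0 and 9.73.

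Among the sensors of foreign nucleic acid, Zbp1 was the member with the largest change in liver. Zbp1 binds Z-form nucleic acid and can start necroptosis. It was at 7.08 and 6.82 in wild-type and 8.05 and 8.44 in Mgl2-DTR liver, a change of 1.30 (SE 0.30, 2.46-fold), with the smallest p of any member there and a limma adjusted p of 0.361. In epididymal fat it was at 7.16 and 7.37 against 8.21 and 7.52, and in inguinal fat at 8.15 and 8.38 against 8.53 and 9.31. Its groups were apart in all 3 tissues. Ifih1, a cytoplasmic sensor of long double-stranded RNA, was apart and higher in inguinal fat (change 0.54, SE 0.22, limma adjusted p = 0.684) and overlapped in epididymal fat and liver. Dhx58, a relative of Ifih1 without signalling domains, was apart in liver alone of the 3 tissues, with a change of 0.52.

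The oligoadenylate synthetase genes did not move as a block. Oasl2, whose product resembles a synthetase fused to ubiquitin, was at 6.26 and 6.26 in wild-type and 6.99 and 7.18 in Mgl2-DTR liver, a change of 0.82 (SE 0.22, 1.77-fold, limma adjusted p = 0.521). It was also apart in epididymal fat (8.15 and 8.45 against 8.91 and 8.53) and in inguinal fat (8.17 and 8.74 against 8.86 and 9.09). Oas2, an enzyme that makes the activator of RNase L, was at 6.87 and 6.89 in wild-type and 7.67 and 7.56 in Mgl2-DTR liver, a change of 0.74, while its change was -0.14 in inguinal fat with overlapping groups. Oas3 and Oasl1 overlapped in all 3 tissues, with changes of -0.02, 0.14 and 0.02 for Oas3 and -0.12, 0.29 and -0.06 for Oasl1 in epididymal fat, inguinal fat and liver.

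Members of the Ifit family, which bind viral RNA, also differed among themselves. Ifit1 had the largest change of any member in epididymal fat, 0.85 (SE 0.39), yet its groups overlapped there, at 7.01 and 7.79 in wild-type and 8.79 and 7.71 in Mgl2-DTR. In inguinal fat it was at 7.69 and 8.10 against 8.65 and 9.09, and in liver at 7.03 and 6.78 against 8.11 and 7.42, apart in both, with changes of 0.98 and 0.86. The limma adjusted p of Ifit1 was 0.711 in epididymal fat, 0.690 in inguinal fat and 0.918 in liver. Ifit2 was dim in liver, with group means under the filter level of 5.71, and its changes were 0.16, 0.33 and 0.23. Ifit3 had changes of -0.11 in epididymal fat, 0.05 in inguinal fat and -0.25 in liver, so it did not follow Ifit1.

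The interferon-induced GTPases Gbp3, Gbp7, Igtp and Irgm1, which take part in defence against intracellular pathogens, were apart and higher in both inguinal fat and liver. This held for 4 of 4 in each, beside 36.5% and 19.2% of all genes. Gbp3 was at 5.12 and 5.34 in wild-type and 6.64 and 6.18 in Mgl2-DTR liver, a change of 1.18 (SE 0.29, 2.27-fold, limma adjusted p = 0.465). The wild-type liver mean of Gbp3 lay under the filter level. In epididymal fat Gbp3 was at 6.53 and 7.07 against 7.71 and 6.83, and in inguinal fat at 7.41 and 7.66 against 7.98 and 7.91. The GTPases Gbp7 and Igtp had changes of 0.76 and 0.80 in liver, 0.45 and 0.37 in inguinal fat and 0.41 and 0.41 in epididymal fat. Irgm1 had a change of 0.48 in liver, 0.36 in inguinal fat and 0.00 in epididymal fat. In epididymal fat the groups of all 4 GTPases overlapped.

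The other antiviral effectors, 11 genes, all had changes above 0 in every tissue, with medians of 0.20 in epididymal fat, 0.47 in inguinal fat and 0.41 in liver. They were apart and higher for 2, 10 and 9 genes, beside 14.8%, 36.5% and 19.2% of all genes, so the epididymal count was near that of genes at large. Isg15, a ubiquitin-like modifier of other proteins, was at 6.35 and 6.54 in wild-type and 6.62 and 7.11 in Mgl2-DTR inguinal fat, and at 6.08 and 5.96 against 6.45 and 6.42 in liver. In epididymal fat Isg15 was at 6.11 and 6.12 against 6.85 and 6.14, so 1 Mgl2-DTR array was well above and the other was level with wild-type. Rtp4 had the largest change of these genes in inguinal fat, 0.75 (SE 0.25, limma adjusted p = 0.620), and Mx2, a GTPase active against viruses, had the largest in liver, 0.93 (SE 0.42, limma adjusted p = 0.913). Mx2 was under the filter level in wild-type inguinal fat and in both epididymal groups. Herc6, the mouse ligase that attaches Isg15, followed in liver with 0.86. Rsad2, the radical enzyme viperin, had 0.54 in liver and 0.08 in epididymal fat.

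Of the poly-ADP-ribose polymerase and ubiquitin ligase genes, Parp9, Parp12 and Parp14 were apart and higher in inguinal fat, with changes of 0.53, 0.37 and 0.43. Parp14 was also apart in liver, at 8.43 and 8.37 against 8.86 and 8.91. Trim25, the ligase that activates the RNA sensor Rig-I, had the lowest change of the members in epididymal fat, -0.45 (SE 0.27, limma adjusted p = 0.776), with 9.58 in the first wild-type array and 8.50 to 8.84 elsewhere in that tissue. Without wild-type replicate 2, limma called Trim25 lower there (adjusted p = 0.0440), as 1 of 763 genes called. The peptide supply genes of MHC class I, Psmb8, Psmb9 and Tap1, had smaller changes. Psmb9, an immunoproteasome subunit, was at 6.95 and 7.06 in wild-type and 7.39 and 7.43 in Mgl2-DTR liver, a change of 0.41 (SE 0.14, limma adjusted p = 0.737), and in epididymal fat its change was -0.06.

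**Figure D3:**
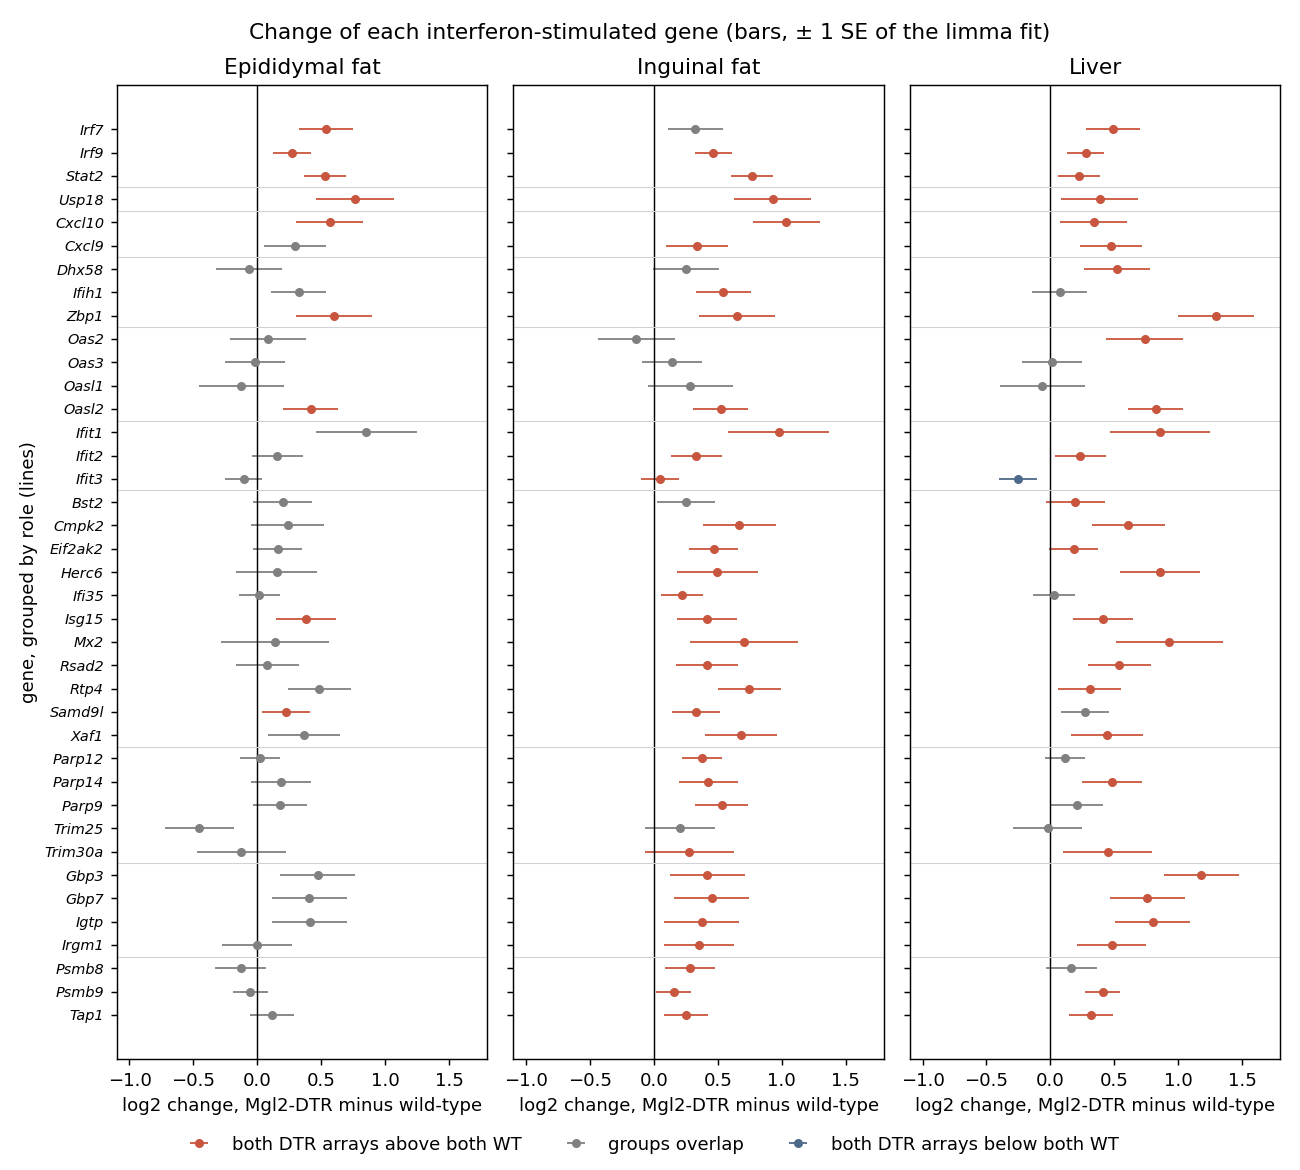
Points are the log2 change of each member, Mgl2-DTR minus wild-type, in the 3 tissues, and bars are 1 SE of the limma fit, with n = 2 arrays a group. Red marks genes whose Mgl2-DTR arrays both lie above both wild-type arrays, which holds for 9 members in epididymal fat, 32 in inguinal fat and 29 in liver, and blue marks the opposite order, which Ifit3 has in liver.

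Averaged over the 3 tissues, 37 of 39 members were higher in Mgl2-DTR mice, with a median change of 0.34 beside 0.04 for all genes. Limma called 0 of 39 members in this average at an adjusted p under 0.05, with 0.0708% of all genes called. At an unadjusted p under 0.05, 25 members were higher and 0 lower, beside 5.26% and 2.41% of all genes. The 25 became 15 without inguinal wild-type replicate 1 (3.98% of all genes), 16 without liver wild-type replicate 2 (5.23%) or epididymal Mgl2-DTR replicate 1 (6.73%), and 32 without epididymal Mgl2-DTR replicate 2 (5.27%). Stat2 came nearest to the threshold with an average change of 0.51 (SE 0.10) and an adjusted p of 0.143. Zbp1 followed with 0.85 (SE 0.17, adjusted p = 0.199), Oasl2 with 0.59 (SE 0.12, adjusted p = 0.249) and Cxcl10 with 0.65 (SE 0.15, adjusted p = 0.358). Ifit3 and Trim25 were the members with an average change under 0. Without epididymal wild-type replicate 2, limma called 2 members in the average, Stat2 (adjusted p = 0.0388) and Oasl2 (adjusted p = 0.0464), and called 297 of all genes.

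**Figure D4:**
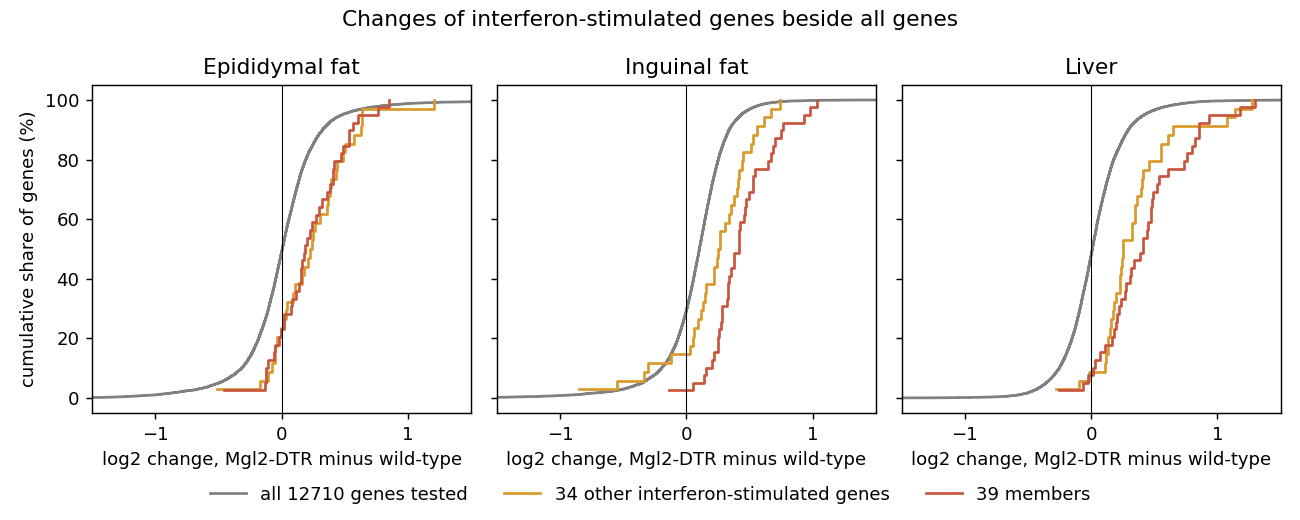
Curves give the cumulative share of genes (y axis, percent) at or under each log2 change, Mgl2-DTR minus wild-type (x axis), in the 3 tissues for 39 members, 34 other interferon-stimulated genes and all 12710 genes tested. The members' curve lies to the right of the curve of all genes, with medians of 0.19, 0.41 and 0.41 against 0.01, 0.10 and 0.01.

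Epididymal Mgl2-DTR replicate 1 had the highest value of the 4 epididymal arrays for 35 of 39 members, and 38 of 39 were higher in it than in replicate 2. Its members lay on average 0.52 above the wild-type mean, and those of replicate 2 lay 0.09 below it. The typical gap between the 2 replicates of that group was 0.67 for members and 0.19 for all genes. In the other 5 groups the members' typical gap was 0.15 to 0.25. Without replicate 1 the members' median change in epididymal fat was -0.14, with 16 of 39 above 0, and without replicate 2 it was 0.55. Replicate 2 is the array with high levels of genes of the epididymal duct, and their part in the difference was not tested. Stat2, Usp18, Irf7 and Cxcl10 kept a change above 0 without replicate 1, at 0.35, 0.34, 0.36 and 0.22.

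In inguinal fat the members' median change was 0.31 to 0.52 when each array in turn was left out, and in liver it was 0.30 to 0.44. In inguinal fat Mgl2-DTR replicate 2, without excess muscle RNA, held the highest of the 4 values for 30 members and replicate 1 for 9. Of the inguinal wild-type pair, replicate 2, the array with excess muscle RNA, was the higher for 36 members. The part of muscle RNA in these orders was not tested. In liver Mgl2-DTR replicate 1 held the highest value for 25 members and replicate 2 for 10.

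The tissues were compared with each other by testing the difference between their changes. The change in inguinal fat exceeded that in epididymal fat for 35 of 39 members, beside 66.1% of all genes, with a median difference of 0.21 beside 0.10 for all genes. That median turned to -0.062 without epididymal Mgl2-DTR replicate 2. Limma called 0 members for this difference, with 0% of all genes called. At an unadjusted p under 0.05 there were 0 members, beside 1.84% of all genes higher and 1.02% lower. The largest of these differences was that of Trim25, 0.66 (SE 0.38, limma adjusted p = 0.995). The change in liver minus the mean change of both depots was above 0 for 21 of 39 members, beside 43.1% of all genes, with a median of 0.06 beside -0.05. It turned below 0 without epididymal Mgl2-DTR replicate 2 (-0.048), inguinal wild-type replicate 2 (-0.016) or liver Mgl2-DTR replicate 1 (-0.04). Here too limma called 0 members, with 0.236% of all genes called, and at an unadjusted p under 0.05 there were 0, beside 3.78% of all genes higher and 4.16% lower. Oas2 (0.77), Gbp3 (0.74) and Zbp1 (0.67) had the largest values toward liver, and Usp18 (-0.46), Cxcl10 (-0.46) and Stat2 (-0.43) the largest toward fat. These comparisons use the same arrays as the changes within each tissue.

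In wild-type mice the level of the members differed by tissue. Liver was compared with the mean of both depots, and limma called 17 of 39 members at an adjusted p under 0.05, 4 higher in liver and 13 lower. Over all genes 57.1% were called, 23.2% higher and 34% lower, so the members' share was not above that of genes at large. The median difference of the members was -0.32 and that of all genes -0.13. Oasl2 had the largest difference, with 6.26 and 6.26 in liver, 8.15 and 8.45 in epididymal fat and 8.17 and 8.74 in inguinal fat (difference -2.12, SE 0.19, adjusted p = 1.0e-05). Gbp3 followed with -1.94 (SE 0.25, adjusted p = 0.000156), and then Oas2 with -1.58, Trim30a with -1.41 and Samd9l with -0.93. Psmb9, Ifit2, Cmpk2, Xaf1, Tap1, Rsad2, Gbp7 and Zbp1 were the other members called lower in liver. Trim30a and Ifit2 lay under the filter level of 5.71 in both liver groups and entered the test through their levels in fat, so their calls follow in part from that filter. Centring each array on its median moved the all-gene median from -0.13 to 0.06 and gave 14 called members, 6 higher in liver and 8 lower, beside 31.4% and 25.8% of all genes. Quantile normalization gave 6 higher and 11 lower, beside 26.9% and 31% of all genes.

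Oasl1 was the member most above fat in liver, at 8.12 and 7.49 against 7.18 and 6.44 in epididymal fat and 6.17 and 6.67 in inguinal fat (difference 1.19, SE 0.29, limma adjusted p = 0.00604). Bst2, the tether that holds budding virus at the cell surface, was at 10.41 and 10.70 in liver against 9.17 to 9.86 in the wild-type fat arrays (difference 1.05). Stat2 was higher in liver by 0.76 and Irgm1 by 0.61 (limma adjusted p = 0.00148 and 0.0497). Oasl2 and Oasl1 therefore stood at opposite ends of the order of members by tissue. Without liver wild-type replicate 1, 11 members were called, beside 44.6% of all genes. Oasl1 then missed the threshold (difference 0.88, limma adjusted p = 0.0766), as did Irgm1 (difference 0.33, limma adjusted p = 0.377), which also missed it under several other settings. In wild-type liver pan-macrophage markers averaged 7.92 and 8.03, against 9.41 to 10.7 in wild-type fat, and endothelial markers 7.64 and 7.75 against 8.32 to 9.02. Their part in the tissue differences was not tested.

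**Figure D5:**
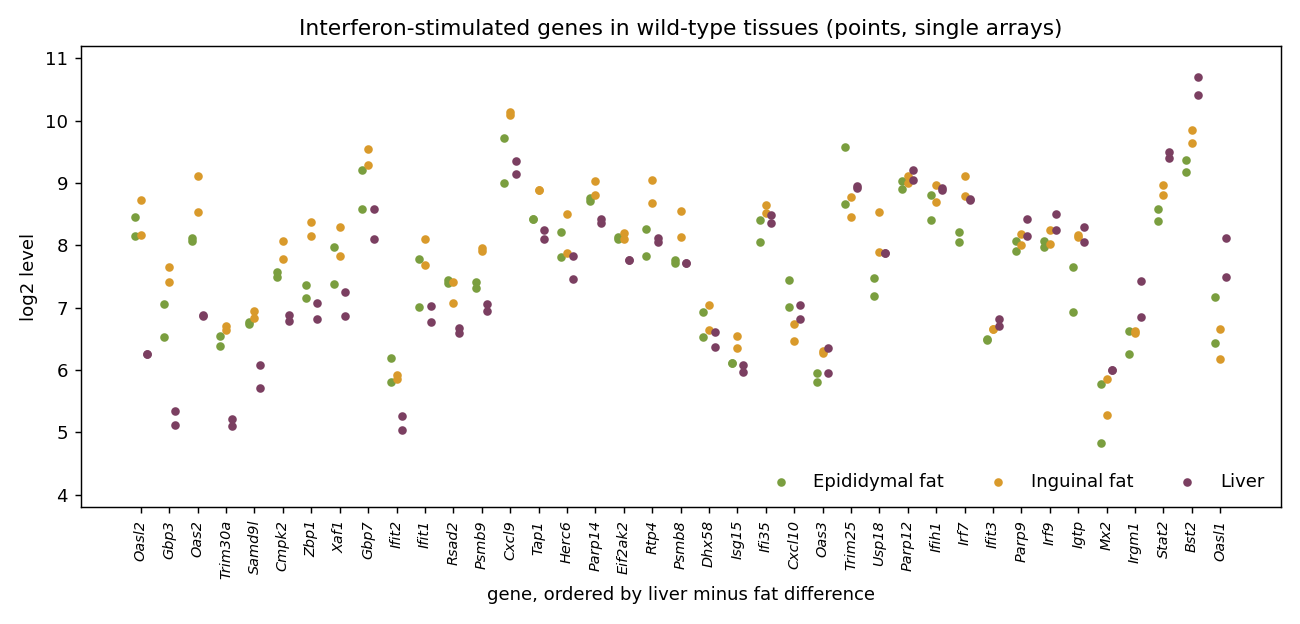
Each point is the log2 level (y axis) of a member on 1 wild-type array, colored by tissue, with genes on the x axis ordered by liver minus the mean of both depots. The order runs from Oasl2, 2.12 lower in liver, to Oasl1, 1.19 higher in liver, and levels should be compared within a gene, since each gene has its own probe.

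Between the depots of wild-type mice, 34 of 39 members were higher in inguinal than in epididymal fat, with a median difference of 0.33 beside -0.02 for all genes. Limma called 0 of 39 members, with 1.49% of all genes called, while 12 members were higher and 1 lower at an unadjusted p under 0.05, beside 6.59% and 9.14% of all genes. Psmb9 came nearest to the threshold (difference 0.57, SE 0.14, limma adjusted p = 0.0915). Zbp1 had the largest difference, 1.0 (SE 0.30), and Cxcl10 was the lower one, at -0.63 (SE 0.26). The wild-type arrays are those used for the changes with genotype. Leaving out epididymal wild-type replicate 2 gave 4 called members, beside 11.4% of all genes. The 12 at an unadjusted p became 4 without epididymal wild-type replicate 1 or inguinal wild-type replicate 2.

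The rest of the pathway was read from lists of its other genes. Of 21 interferon genes 5 were bright enough to be tested, and Ifng, the gene of type II interferon, lay between 3.90 and 4.34 on every array. Limma called 0 of the 5 in each tissue, with an unadjusted p under 0.05 for 1, Ifna1 in inguinal fat, at 6.87 and 7.04 in wild-type and 7.43 and 7.27 in Mgl2-DTR (change 0.40, SE 0.17, limma adjusted p = 0.700). Their median change was -0.02 in epididymal fat, 0.30 in inguinal fat and 0.03 in liver. Genes of this family are near-identical in sequence, so probes of one may read another.

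Among 13 tested receptor and signalling genes the median change was -0.07 in epididymal fat, 0.10 in inguinal fat and 0.14 in liver, and limma called 0 in each tissue. Irf1, the factor that carries much of the type II response, was at 7.43 and 7.45 in wild-type and 7.90 and 7.98 in Mgl2-DTR liver (change 0.50, SE 0.14, limma adjusted p = 0.605), the 1 gene of the list with an unadjusted p under 0.05 and higher there. Tyk2, a receptor kinase, was the 1 gene lower at that level in epididymal fat, at -0.42 (SE 0.18, limma adjusted p = 0.710). Irf5 had no single-symbol probe.

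Nucleic acid sensors and their adaptors, 12 genes, had medians of -0.25 in epididymal fat, 0.06 in inguinal fat and 0.24 in liver, and limma called 0 of them in each tissue. The endosomal RNA receptors Tlr8 and Tlr7, the 2 at an unadjusted p under 0.05, were lower in both depots. Tlr8 was at 10.07 and 8.43 against 7.84 and 7.07 in epididymal fat and at 7.65 and 8.50 against 6.10 and 6.76 in inguinal fat, changes of -1.80 and -1.65 (limma adjusted p = 0.689 and 0.591). Tlr7 had changes of -1.40 and -1.24, so both ran against the members in the same arrays.

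A further 34 interferon-stimulated genes outside the 40 were tested as a second list. Of these 26 were higher in Mgl2-DTR epididymal fat, 29 in inguinal fat and 31 in liver, with medians of 0.23, 0.26 and 0.25. The medians over all genes were 0.005, 0.10 and 0.01, and 26, 25 and 31 of the list lay above them. Limma called 0 in each tissue. At an unadjusted p under 0.05, 3, 6 and 5 were higher, beside 3.5%, 4.77% and 3.16% of all genes. In inguinal fat 1 was lower at that level, beside 2.16% of all genes. Adar, the double-stranded RNA editing enzyme, had the smallest p in inguinal fat (0.44, SE 0.13, limma adjusted p = 0.583). Epsti1 differed between tissues, with 5.95 and 5.38 in wild-type and 7.16 and 6.71 in Mgl2-DTR liver, and 8.06 and 7.78 against 7.03 and 7.11 in inguinal fat. The liver change of Epsti1 was 1.27 (SE 0.29, limma adjusted p = 0.361) and its difference from the mean fat change was 1.95 (SE 0.35, limma adjusted p = 0.0952). In epididymal fat the exonuclease gene Isg20 had the smallest p, with a change of 1.21 (SE 0.48, limma adjusted p = 0.710).

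The other genes of MHC class I presentation, 14 tested, had medians of 0.00, 0.08 and 0.15 in epididymal fat, inguinal fat and liver. Limma called 0 in each tissue, with 0 higher and 1 lower at an unadjusted p under 0.05 in epididymal fat and 0 either way in inguinal fat and liver. H2-M3, the 1 lower in epididymal fat, had a change of -0.37 (SE 0.12, limma adjusted p = 0.710), and Nlrc5, the transactivator of class I genes, was at 0.53 (SE 0.24, limma adjusted p = 0.928) in liver.

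Markers of other cell types moved beside the members in some tissues. In liver 13 of 13 pan-macrophage markers were apart and higher in Mgl2-DTR mice (19.2% of all genes were), with mean levels of 7.92 and 8.03 in wild-type and 8.51 and 8.57 in Mgl2-DTR and a median change of 0.61, while limma called 0 of them and 3 had an unadjusted p under 0.05. T and NK cell genes in liver averaged 5.59 and 5.89 in wild-type and 5.94 and 6.24 in Mgl2-DTR, with 3 of 5 higher. In inguinal fat 0 of the 5 were higher, with a median change of -0.46. Inflammatory monocyte genes averaged 7.91 and 7.94 against 8.27 and 8.60 in liver, 5 of 5 higher. In each fat depot 3 of these 5 were higher. In fat pan-macrophage markers went the other way from the members, with medians of -1.12 in epididymal and -1.23 in inguinal fat. Of 11 tested markers of the CD301b-type resident macrophage, 4 fell in epididymal and 7 fell in inguinal fat by limma, beside 0.0315% and 0.189% of all genes. Endothelial markers were higher for 9 of 9 genes in both depots. Changes above the all-gene median were seen for 9 in epididymal and 7 in inguinal fat. Their mean levels were 8.88 and 9.02 in wild-type and 9.12 and 9.61 in Mgl2-DTR inguinal fat. The epididymal means overlapped, at 8.32 and 8.83 against 9.14 and 8.63. Apart and higher were 1 in epididymal and 5 in inguinal fat, beside 14.8% and 36.5% of all genes, and limma called 0 of 9. Markers of plasmacytoid dendritic cells, a main source of type I interferon, had medians of -0.07, -0.26 and 0.08 over 6 tested genes. The part of these cell types in the members' differences was not tested.

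Members with the response element in the promoter window were set beside those without it. The 15 with the motif had median changes of 0.32 in epididymal fat, 0.42 in inguinal fat and 0.41 in liver, and the 16 tested members without it had 0.15, 0.33 and 0.30. Stat2, Cxcl10, Ifit1, Isg15 and Gbp3, whose stretches are printed above, belong to the first set, as do Oas3 and Ifit3, which stayed near or below wild-type. Psmb9 and Irf9 are in the second set. No window was matched for Usp18, Zbp1, Oas2, Dhx58, Mx2, Parp9, Parp14 and Rtp4. For the second motif, TTCNNNGAA, the order was reversed. The 7 members with it had medians of 0.16, 0.33 and 0.20 in epididymal fat, inguinal fat and liver. The 24 tested members without it had 0.23, 0.39 and 0.41. Neither difference was tested.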

How the data were processed

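The deposited table holds normalized log2 levels, 1 column per array, made by the authors from Affymetrix arrays. The submitters' processing notes name limma, while how background was corrected and probes were normalized and summarized is not given in the sources used here. Of 41345 probes, 23521 carry 1 gene symbol in the platform annotation, 1814 several and 16010 none listed. For each of 22180 genes the probe with the highest mean over 12 arrays was used. A gene entered the tests where in some tissue the mean of its 4 arrays was above 5.71, which is the median value of single-symbol probes, and 12710 did.

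The model was limma 3.58.1 under R 4.3.3 (lmFit and eBayes without trend) with 1 mean for each of 6 groups of 2 arrays and 6 residual and 3.35 prior degrees of freedom. All tests are two-sided, with Benjamini-Hochberg adjustment over all genes tested, and called at an adjusted p under 0.05. The number of arrays limits the precision. The fit was run on simulated data with known changes and noise drawn separately for each gene. Shifts shared by many genes of an array were not simulated, so that run does not bear on them. Groups apart means that both arrays of one genotype lie above both of the other.

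The members and lists were chosen with earlier results of these data known, so their shared direction is not independent support for those results. Values on every array are given for the 4 members with the smallest p in each tissue and in the average, and the 5 largest called differences each way are named between wild-type tissues. Other lists name called members or the 2 with the smallest p. Further genes were chosen after their values were seen.

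Same-numbered arrays of both genotypes were checked for pairing: the correlation of their deviations was 0.05 in epididymal fat, -0.12 in inguinal fat and 0.09 in liver, so the numbers were not taken as pairs. Alternatives were other filters, probes and normalizations, trended or weighted fits, blocks, single tissues, another threshold and leaving out arrays; array centring and a crossed block were added after the data were seen.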

Additional observations from a re-analysis of the deposited data

How the results depend on the processing

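The count of members called in inguinal fat, in liver and in the differences between tissues' changes was 0 under every other setting run for it. In epididymal fat it was 0 to 1 when single arrays were left out, the 1 being Trim25 without wild-type replicate 2. In the average it was 0 to 2. Between wild-type depots it was 1 at an adjusted p under 0.10 and 0 to 4 with single arrays left out, and between wild-type liver and fat it was 11 to 20 with single arrays left out, lowest without liver wild-type replicate 1, and 12 to 22 under other settings. The members' median change in epididymal fat ran from -0.14 to 0.55 with single arrays left out, and that of the 34 other interferon-stimulated genes from -0.015 to 0.33. The median of inguinal minus epididymal change ran from -0.062 to 0.51 with single arrays left out and was -0.011 without both epididymal arrays that stood apart. The median of liver minus mean fat change ran from -0.048 to 0.19 with single arrays left out, and was -0.016 without inguinal wild-type replicate 2 and -0.04 without liver Mgl2-DTR replicate 1. It was -0.017 without both muscle-bearing inguinal arrays and -0.042 without both epididymal arrays that stood apart. The cause was not tested. Through these settings 25 single-gene results were followed, those with the smallest p or the largest called difference, and 0 turned direction. Being picked in these same data, they were unlikely to turn, and several settings cannot alter an estimate. The 0 therefore says little about stability. Irgm1 in wild-type liver missed the threshold under several settings. The changes of other genes named in the text were not followed in this way. With the replicate number as a block, 0 members were called in each genotype comparison, and the members' medians were unchanged. That block gave 15 called members between wild-type liver and fat, beside 54.1% of all genes. In inguinal fat, crossed numbers as a block gave 0 called members and 18 called genes. Centring each array on its median took the all-gene median of inguinal fat from 0.10 to 0.04 (log2) and the members' median to 0.35. An array left out leaves a lone sample, taken to vary as much as the remaining groups do.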
